A study of Mus musculus with 24 samples.

Results

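The cytochrome P450 family 4 was followed in mouse liver through 10 genes, chosen by symbol: Cyp4a10, Cyp4a12a, Cyp4a12b, Cyp4a14, Cyp4a31, Cyp4a32, Cyp4f13, Cyp4f14, Cyp4f15 and Cyp4v3. They are 10 of the 35304 genes in the table of counts, and all 10 were among the 17275 genes abundant enough to be tested. Total RNA of whole liver was sequenced in 24 libraries from C57BL/6 mice aged 8 to 12 weeks. In HepKO livers (Alb::Cre_+/0, Bmal1_fl/fl) the clock gene Bmal1, listed as Arntl, is floxed on both alleles and Cre is driven by the albumin promoter, which is active in hepatocytes. HepWT livers (Alb::Cre_0/0, Bmal1_fl/fl) carry the same floxed alleles without Cre. By this design, cells outside the hepatocyte lineage are expected to keep an intact Bmal1 in both genotypes, which was not checked here. All mice were fed only at night, and livers were taken at ZT2, ZT6, ZT10, ZT14, ZT18 and ZT22 (ZT, zeitgeber time, is counted in hours from the onset of light), which gave 2 libraries per genotype at each of 6 times. Whether the 2 libraries of a group came from separate animals is not given in the labels used here, so the p-values measure the spread between these libraries.

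Enzymes of family 4 hydroxylate fatty acids at or next to the terminal methyl carbon, the first step of omega oxidation, whose dicarboxylic products are shortened in peroxisomes. Several also act on eicosanoids: mouse Cyp4a12a makes the vasoactive lipid 20-HETE from arachidonic acid, and Cyp4f14 inactivates leukotriene B4. In mouse liver Cyp4a10 and Cyp4a14 are classic targets of PPARA, the nuclear receptor for fatty acids, whereas Cyp4a12a and Cyp4a12b are known for higher levels in males. Cyp4v3 is the mouse orthologue of human CYP4V2, a fatty acid hydroxylase whose loss causes a retinal dystrophy.

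The 6 Cyp4a genes lie in one cluster on chromosome 4 (GRCm38, chr4:115299046-115621602 from the first to the last of them), and the 3 Cyp4f genes lie on chromosome 17 (chr17:32685627-32947402). Cyp4v3 lies apart, on chromosome 8 (chr8:45304944-45333216, minus strand). Within the Cyp4a cluster some genes are near copies, which matters for how reads were assigned. The coding sequences of Cyp4a12a and Cyp4a12b are 98.5% identical, and 35.8% of all 100-base windows of Cyp4a12a exons also occur in Cyp4a12b. Cyp4a10, Cyp4a31 and Cyp4a32 are 96.0% to 97.2% identical in pairs, and 20.1% of the 100-base windows of Cyp4a32 occur in one of the other two. Cyp4a14 is 74.8% to 75.8% identical to the other Cyp4a genes and shares no 100-base window with any gene. The most divergent stretches show what a read must contain to be told apart, and 1 such stretch is printed for each pair, 5′ to 3′ from the coding strand of GENCODE M21 transcripts (GRCm38), with the bases that differ between the copies in capitals. In Cyp4a12a and Cyp4a12b, coding bases 664 to 763 hold 8 differences, with a run without any between them.
Cyp4a12a: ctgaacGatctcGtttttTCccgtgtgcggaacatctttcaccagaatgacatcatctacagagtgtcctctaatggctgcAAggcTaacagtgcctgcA
Cyp4a12b: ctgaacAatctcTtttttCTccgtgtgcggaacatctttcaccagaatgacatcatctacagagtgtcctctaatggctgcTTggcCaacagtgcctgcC
In Cyp4a10 and Cyp4a32, coding bases 180 to 279 hold 13 differences.
Cyp4a10: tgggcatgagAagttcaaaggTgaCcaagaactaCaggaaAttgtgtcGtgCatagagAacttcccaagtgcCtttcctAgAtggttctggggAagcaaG
Cyp4a32: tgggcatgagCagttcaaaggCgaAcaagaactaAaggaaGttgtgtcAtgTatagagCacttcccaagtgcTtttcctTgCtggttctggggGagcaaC

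Levels are given as CPM, the count of a gene relative to the TMM-scaled total of its library, and they were compared between genes only per kilobase of exon. Cyp4v3 was the most abundant of the 10, at 117 ± 12.4 CPM per kb (SD, n = 24 libraries), followed by Cyp4f14 at 93.0 ± 14.3 and Cyp4a10 at 70.7 ± 52.5 CPM per kb. Cyp4a12a (59.9 ± 15.6), Cyp4a14 (55.0 ± 63.1) and Cyp4f15 (47.1 ± 7.30 CPM per kb) came next, and Cyp4a12b stood at 25.9 ± 9.57 CPM per kb. Cyp4f13 (12.8 ± 1.25), Cyp4a32 (11.1 ± 3.45) and Cyp4a31 (1.21 ± 0.735 CPM per kb) were the least abundant. The length took in every annotated exon of a gene. For Cyp4f13 that was 4441 bases, while its longest coding transcript holds only 1653 windows of 100 bases. The place of Cyp4f13 in this order depends on the length used. Of the 9 neighbouring pairs in this order, 8 had overlapping ranges over the 24 libraries, and the ranges did not overlap only between Cyp4a32 and Cyp4a31. The members differed in how far they ranged. The highest library held 82.5 times the CPM of the lowest for Cyp4a14 and 24.4 times for Cyp4a10, but 1.45 times for Cyp4f13 and 1.57 times for Cyp4v3, as the plot of levels by time shows.

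**Figure D1:**
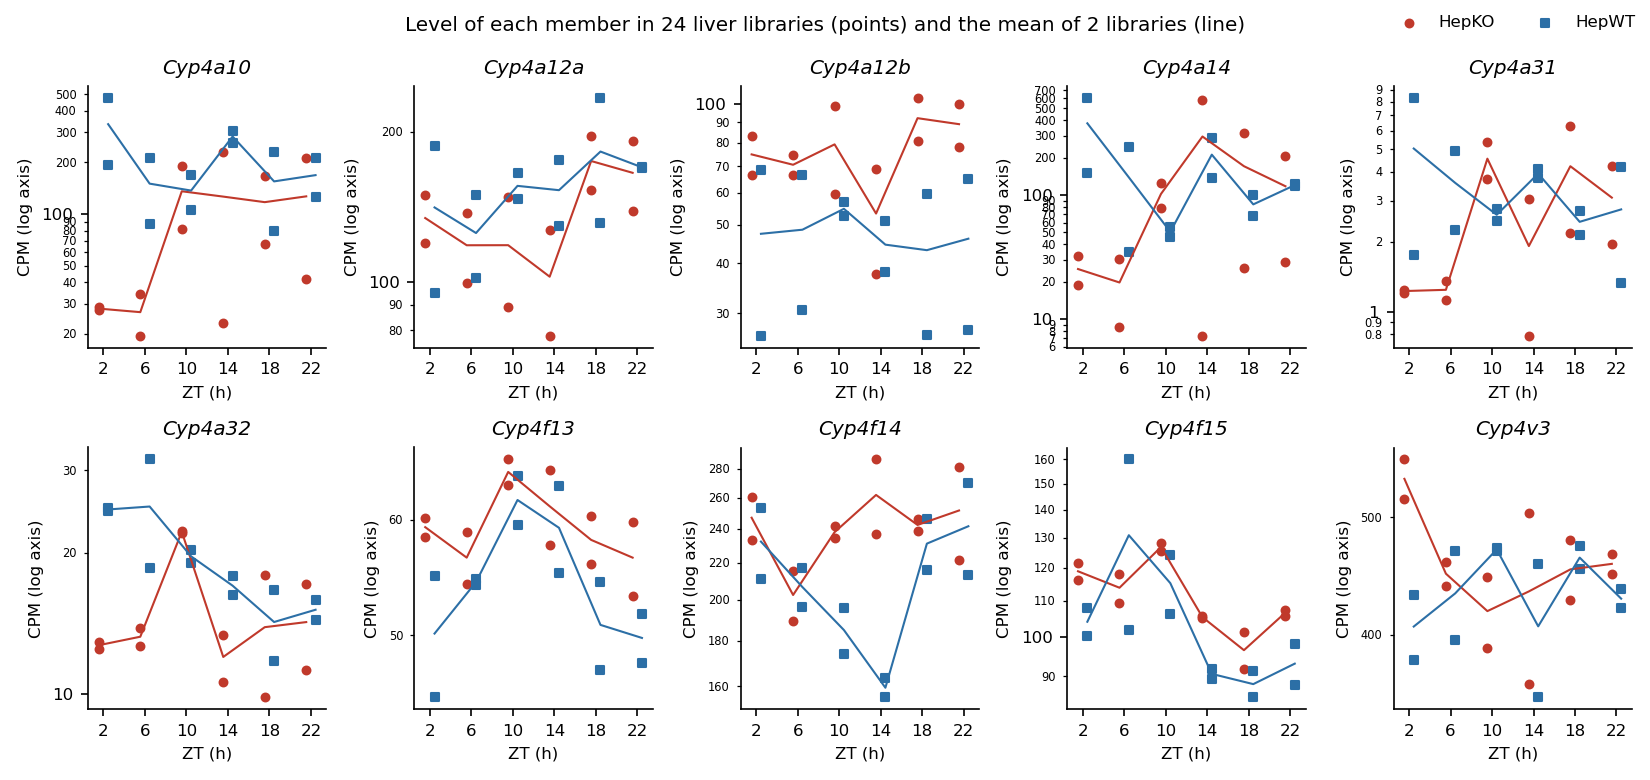
CPM of each of the 10 genes (log axes, a scale of its own in each panel) against zeitgeber time in hours, with HepKO libraries as red circles left of HepWT libraries as blue squares and lines through the means of 2 libraries. Cyp4a10 in HepKO lies between 19.5 and 34.0 CPM at ZT2 and ZT6, below every HepWT library at those times, and Cyp4f14 in HepWT is lowest at ZT14.

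Before the members, the libraries and the deletion were checked. Total counts ran from 12997689 to 30677807, and 5 HepKO replicate 2 libraries (ZT6 to ZT22) had 12997689 to 16910415 counts, against 23583035 or more in the other 19. The names of those 5 columns also carry a suffix that no label explains, and where the averaged call of a member changed without them that value is given beside it. Libraries of the same replicate number tended to deviate together within HepWT (11 of 15 pairs of times correlated above 0.1, median r = 0.17) and not within HepKO (0 of 15, median -0.02). Arntl averaged 13.7 ± 2.38 CPM in HepKO and 23.1 ± 17.7 CPM in HepWT (SD, n = 12 each). Its log2 difference averaged over the 6 times was 0.04 ± 0.07 and was not called (adjusted p = 0.705, edgeR quasi-likelihood test). At ZT2 Arntl had 15.2 and 16.3 CPM in HepKO, against 43.8 and 46.0 CPM in HepWT. At ZT10 it had 11.9 and 10.3 CPM in HepKO, against 1.27 and 1.40 CPM in HepWT. Arntl ranged from 10.3 to 17.7 CPM in HepKO and from 1.27 to 46.0 CPM in HepWT, and its 24 h rhythms differed between genotypes (adjusted p = 0.00208, same test). Counts over the whole gene do not check the deleted exon itself. Among markers of other cells the summed level of 10 Kupffer cell genes had a median of 341 CPM in HepKO (238 to 494) and 456 CPM in HepWT (305 to 555). All 10 of those genes were lower in HepKO by the same test, and so were 6 of 8 endothelial genes, against 13.3% of all tested genes. The median log2 difference was -0.40 for the Kupffer cell genes and -0.14 for the endothelial genes. The summed level of 13 hepatocyte genes had a median of 95771 CPM in HepKO (89508 to 103871) and 138453 CPM in HepWT (121922 to 157986), and albumin alone averaged 25009 ± 4309 CPM in HepKO and 63916 ± 7972 CPM in HepWT. Of the 13, 3 were lower, 1 was higher and 9 were not called, with a median log2 difference of -0.01. No marker of 7 cell types that was in the table stood at 0 in every library. In whole liver, fewer cells of a type and less RNA per cell cannot be told apart, and the part of cell composition in the results below was not tested.

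Averaged over the 6 times, 5 of the 10 genes differed between HepKO and HepWT, against 26.5% of all tested genes. Cyp4a10 and Cyp4a32 fell, against a background of 13.3% of genes lower in HepKO. Cyp4a12b, Cyp4f13 and Cyp4f14 rose, against a background of 13.2%. The median log2 difference over the 10 genes was -0.06, and it was -0.01 over all tested genes. The differences were tested with edgeR's quasi-likelihood F test on counts, with Benjamini-Hochberg adjustment over all 17275 genes and a threshold of 0.05 (a gene past it is said to be called), and they are given as HepKO minus HepWT in log2 units with the standard error of the fit. The plot of genotype differences orders them by symbol.

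**Figure D2:**
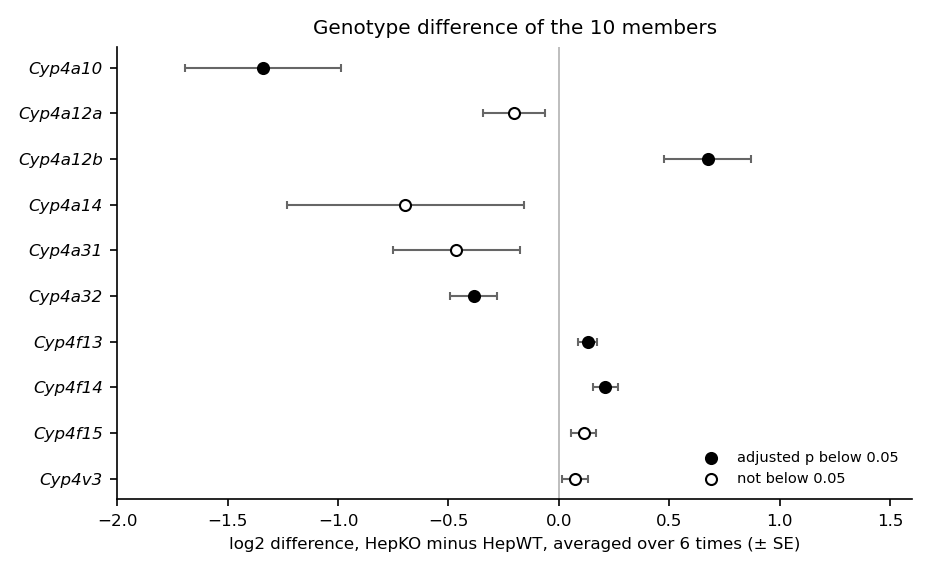
Log2 difference between HepKO and HepWT averaged over 6 times for each gene (x axis, HepKO minus HepWT, bars are ± 1 SE of the fit), with filled circles for adjusted p below 0.05. Cyp4a10 is lowest at -1.34, Cyp4a12b is highest at 0.67, and the 3 Cyp4f genes lie between 0.11 and 0.21.

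Cyp4a10, a fatty acid omega-hydroxylase induced through PPARA, showed the widest shift of the 5. Its lowest, median and highest libraries had 19.5, 54.4 and 230 CPM in HepKO, against 80.03, 203 and 476 CPM in HepWT. The ranges overlapped, but the HepKO median lay below the lowest HepWT library. The fitted difference was -1.34 ± 0.35 (adjusted p = 0.00884), a 2.53-fold lower level in HepKO, and the difference at each of the 6 times was below 0. At ZT2 the 2 libraries had 28.5 and 27.6 CPM in HepKO, against 193 and 476 CPM in HepWT. At ZT6 they had 34.0 and 19.5 CPM in HepKO, against 213 and 88.0 CPM in HepWT. At ZT10 the genotypes did not separate, with 81.5 and 190 CPM in HepKO and 168 and 106 CPM in HepWT. The separation at ZT2 and ZT6 did not pass the adjustment at either time alone (-3.58 ± 0.94, adjusted p = 0.0637, and -2.48 ± 0.91, adjusted p = 0.137), and DESeq2 called the difference at ZT2. The averaged call was lost when only the HepWT replicate 2 libraries served as the control (-1.02, adjusted p = 0.114). Those 6 libraries ran from 80.03 to 476 CPM, while the 6 HepWT replicate 1 libraries stayed between 168 and 261 CPM. Over 35 alternatives that kept a filter on low counts, the adjusted p of the averaged difference ran from 0.000487 to 0.114.

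Cyp4a32, a close relative of Cyp4a10 with a lower level per kilobase, also fell. It had 9.82, 13.1 and 22.3 CPM (lowest, median, highest) in HepKO, against 11.8, 18.2 and 31.6 CPM in HepWT, and the fitted difference was -0.39 ± 0.11 (adjusted p = 0.0112). The fitted gap was widest at ZT2 and ZT6. At ZT2 Cyp4a32 had 12.9 and 12.5 CPM in HepKO, against 24.6 and 24.9 CPM in HepWT, and at ZT6 it had 12.7 and 13.8 CPM in HepKO, against 31.6 and 18.5 CPM in HepWT. At ZT10 the order turned, with 22.01 and 22.3 CPM in HepKO above 20.3 and 19.0 CPM in HepWT. Cyp4a32 at ZT6 was the only member called at that time (-0.93 ± 0.26, adjusted p = 0.0485, against 4.96% of genes called). That call was lost when any 1 of 15 libraries was left out in turn, among them HepWT ZT6 replicate 1, without which the difference was -0.51 (adjusted p = 0.408). The averaged difference missed the threshold when the 5 low-depth libraries were left out (-0.31, adjusted p = 0.0593) and with the HepWT replicate 2 libraries alone as the control (-0.28, adjusted p = 0.112). Over the same 35 alternatives its adjusted p ran from 0.00186 to 0.112, and over 33 at ZT6 from 0.0112 to 0.423.

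The other 2 genes of the cluster that are not part of the Cyp4a12 pair, Cyp4a14 and Cyp4a31, were not called. Cyp4a14, a fatty acid omega-hydroxylase, had 7.35, 31.4 and 585 CPM (lowest, median, highest) in HepKO, against 34.8, 120 and 607 CPM in HepWT. Its fitted difference was -0.69 ± 0.54 (adjusted p = 0.385). The 2 libraries of a group could disagree widely: at ZT14 HepKO had 7.35 and 585 CPM, and HepWT had 286 and 137 CPM. Without HepKO ZT14 replicate 2 the averaged difference was -1.58 and was called (adjusted p = 0.0177), and without the 5 HepKO libraries of low depth it was -1.25 (adjusted p = 0.0454), within a range of 0.0177 to 0.823 over the alternatives. At ZT2 Cyp4a14 had 18.7 and 32.0 CPM in HepKO, against 150 and 607 CPM in HepWT, and at ZT6 it had 30.8 and 8.70 CPM in HepKO, against 243 and 34.8 CPM in HepWT. Cyp4a31 ran from 0.788 to 6.26 CPM in HepKO and from 1.33 to 8.30 CPM in HepWT (-0.46 ± 0.29, adjusted p = 0.266). At ZT2 and again at ZT6, both HepKO libraries were below both HepWT libraries for Cyp4a10, Cyp4a14, Cyp4a31 and Cyp4a32. Such a separation in that direction was seen in 22.9% of all tested genes at ZT2 and in 24.6% at ZT6. At ZT14 it was seen again for Cyp4a10 (23.2 and 230 CPM in HepKO, against 261 and 306 CPM in HepWT), Cyp4a31, Cyp4a32 and Cyp4a12a, against 22.5% of all tested genes. At ZT10, both HepKO libraries lay above both HepWT libraries for Cyp4a14, Cyp4a31 and Cyp4a32, and for Cyp4a12b, Cyp4f14 and Cyp4f15, as they did for 25.8% of all tested genes. They also lay above at ZT2 for Cyp4f13, Cyp4f15 and Cyp4v3, against 21.5% of all tested genes. The same was seen at ZT14 for Cyp4f14 and Cyp4f15, and at ZT18 for Cyp4f13, Cyp4f15 and Cyp4a12b. At ZT22 it was seen for Cyp4f13, Cyp4f15, Cyp4a12b and Cyp4v3. Cyp4v3 lay below at ZT10. Shares over all genes are not given here for separations above at ZT14, ZT18 and ZT22, or below at ZT10. Those separations are therefore only listed and are not read as a result about the members. The shares that are given ran from 21.5% to 25.8%.

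Cyp4a10 and Cyp4a14 were high or low in much the same libraries, and in 10 of 12 groups both differed in the same direction between the 2 libraries. The exceptions were HepKO at ZT2 and HepWT at ZT14. Over the 24 libraries Pearson's r of log2(CPM + 1) was 0.90 between them, a description only, since the libraries share genotypes and times. Cyp4a31 and Cyp4a14 had r = 0.80, Cyp4a10 and Cyp4a31 had r = 0.77, and Cyp4a10 and Cyp4a32 had r = 0.64. Cyp4v3 ran the other way, with r = -0.75 against Cyp4a14 and r = -0.63 against Cyp4a10. In HepKO at ZT14, replicate 1 had 7.35 CPM of Cyp4a14 and 23.2 CPM of Cyp4a10, while replicate 2 had 585 and 230 CPM. In the same pair of libraries 35 of 43 other tested PPARA target genes were higher in replicate 2, with a median log2 difference of 0.26. In HepKO at ZT22, where Cyp4a14 was 206 CPM in replicate 1 and 29.0 CPM in replicate 2, 40 of the 43 were lower in replicate 2 (median -0.18). In HepKO at ZT18, with 316 CPM of Cyp4a14 in replicate 1 and 26.0 CPM in replicate 2, 35 of the 43 were lower in replicate 2 (median -0.12). In other groups the targets were split although Cyp4a14 differed widely. In HepWT at ZT2, with 150 CPM of Cyp4a14 in replicate 1 and 607 CPM in replicate 2, 23 of the 43 were higher and 20 lower in replicate 2 (median 0.02). In HepWT at ZT6, with 243 CPM in replicate 1 and 34.8 CPM in replicate 2, 20 were higher and 23 lower (median -0.02). A wide gap in Cyp4a14 between the libraries of a group thus came with a shift of most targets in some groups and not in others. Most targets also shifted in some groups where Cyp4a14 differed less. In HepWT at ZT22 it had 122.5 CPM in replicate 1 and 117.9 CPM in replicate 2. There 33 of the 43 were lower in replicate 2 (median -0.15). In HepWT at ZT18 it had 100.5 and 67.6 CPM, and 41 of the 43 were lower (median -0.31). In HepKO at ZT10, with 79.3 and 124.8 CPM, 21 were higher and 22 lower. The plot of the 2 genes against each other shows every library. What set these libraries apart was not tested.

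**Figure D3:**
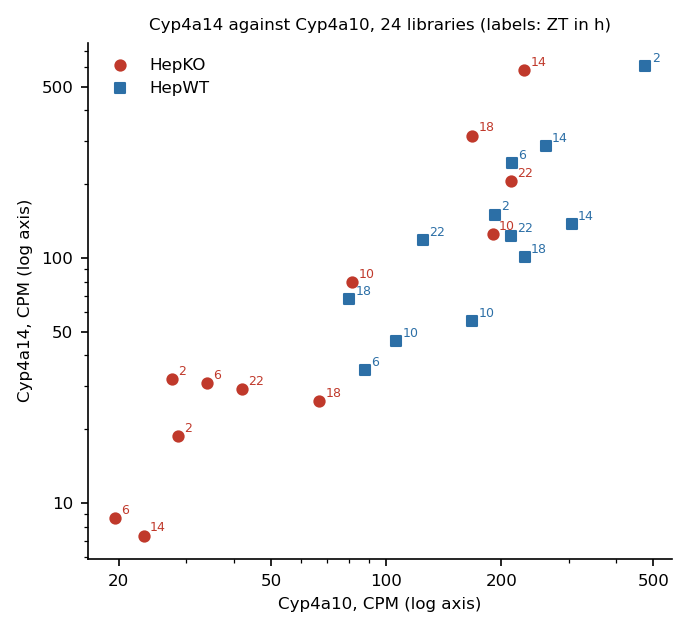
Cyp4a14 against Cyp4a10 in CPM, both on log axes, 1 point per library with its zeitgeber time in hours beside it (red circles HepKO, blue squares HepWT). The 24 points follow 1 rising band (r = 0.90), and the HepKO libraries of ZT14 lie at opposite ends of it, at 7.35 and 585 CPM of Cyp4a14.

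Cyp4a12b, one of the near-identical pair on chromosome 4, rose. It had 37.6, 76.4 and 104 CPM (lowest, median, highest) in HepKO, against 26.4, 51.9 and 68.5 CPM in HepWT. The HepKO median was above the highest HepWT library, although the ranges overlapped, and the difference was above 0 at each of the 6 times. The fitted difference was 0.67 ± 0.20 (adjusted p = 0.0168), a 1.596-fold higher level. Cyp4a12a, the 20-HETE synthase, was not called: it had 78.0, 138 and 196 CPM in HepKO, against 94.9, 157 and 234 CPM in HepWT (-0.20 ± 0.14, adjusted p = 0.321). Summed over both genes, the pair had 212 ± 54.0 CPM in HepKO and 202 ± 50.5 CPM in HepWT (SD, n = 12 each), and the call was lost (0.05 ± 0.15, adjusted p = 0.837). How the reads of their shared windows were divided between the copies was not tested. Over 35 alternatives that kept a filter on low counts, the adjusted p of Cyp4a12b ran from 0.000116 to 0.837, the highest being that of the sum.

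The share of the pair's counts assigned to Cyp4a12b was 36.2% ± 3.19 in HepKO and 23.2% ± 4.74 in HepWT (SD, n = 12 each). It ran from 32.5% to 42.9% in HepKO and from 13.8% to 30.8% in HepWT, so no HepWT library reached the lowest HepKO library. This share was computed after the counts had been seen, so it is given as a description, and no p-value is drawn from it. It differed within HepWT too, at 25.6% ± 3.74 in the replicate 1 libraries and 20.8% ± 4.61 in the replicate 2 libraries (SD, n = 6 each). Cyp4a12b itself had 61.3 ± 6.59 CPM in the HepWT replicate 1 libraries and 33.6 ± 10.3 CPM in the replicate 2 libraries, and it was lower in replicate 2 at each of the 6 times. With the replicate 1 libraries alone as the control, the Cyp4a12b difference was 0.31 and was not called (adjusted p = 0.158), and without the 5 HepKO libraries of low depth it was 0.74 (adjusted p = 0.0613). The same sum for Cyp4a10, Cyp4a31 and Cyp4a32 kept its call (-1.17 ± 0.31, adjusted p = 0.00982), at 111 ± 85.5 CPM in HepKO and 228 ± 114 CPM in HepWT.

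**Figure D4:**
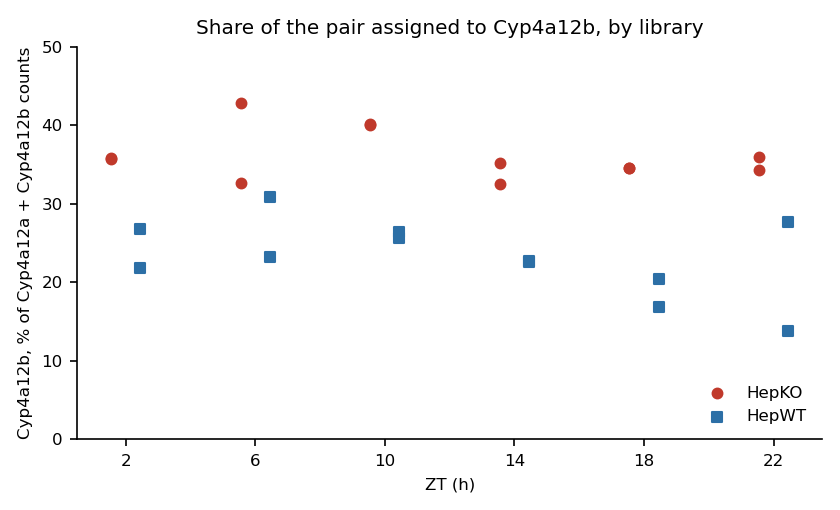
Share of the counts of Cyp4a12a and Cyp4a12b together that was assigned to Cyp4a12b, in percent, by zeitgeber time in hours, 1 point per library (red circles HepKO, left of blue squares HepWT; some points coincide). All 12 HepKO libraries lie between 32.5% and 42.9%, above all 12 HepWT libraries at 13.8% to 30.8%.

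The 3 Cyp4f genes had small averaged differences above 0, and 2 of them were called. Cyp4f14, the leukotriene B4 omega-hydroxylase of mouse liver, rose: it had 189, 238 and 287 CPM (lowest, median, highest) in HepKO, against 156, 212 and 270 CPM in HepWT (0.21 ± 0.06, adjusted p = 0.0114). The difference was above 0 at 5 of the 6 times and widest at ZT14, where HepKO had 237 and 287 CPM, against 156 and 163 CPM in HepWT. That difference was called at this time alone (0.71 ± 0.14, adjusted p = 0.00374, against 7.64% of genes called), and Cyp4f14 was the only member called at ZT14. Without HepKO ZT14 replicate 2, which is a library of low depth and the one high in Cyp4a14, it was 0.58 and just missed the threshold (adjusted p = 0.0521). At ZT10 the values were 242 and 234 CPM in HepKO, against 196 and 174 CPM in HepWT (0.36 ± 0.14, adjusted p = 0.148). At ZT18 and ZT22 the libraries of the 2 genotypes overlapped. The averaged call did not survive leaving out the 5 low-depth libraries (0.18, adjusted p = 0.0862) or the HepWT replicate 2 libraries alone as the control (0.14, adjusted p = 0.131). Its adjusted p ran from 0.00317 to 0.131 over the alternatives, and at ZT14 from 6.02e-05 to 0.092.

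Cyp4f13 rose by less, with 53.2, 59.3 and 66.0 CPM in HepKO, against 45.4, 54.5 and 64.3 CPM in HepWT (0.13 ± 0.04, adjusted p = 0.0344). This call was lost when any 1 of 14 libraries was left out in turn (adjusted p up to 0.0837). With the HepWT replicate 1 libraries alone as the control it was 0.06 (adjusted p = 0.422), and without the 5 libraries of low depth it was 0.11 (adjusted p = 0.206), in a range of 0.00695 to 0.422 over the alternatives. Cyp4f15 was not called (0.11 ± 0.06, adjusted p = 0.177), with 91.8, 108 and 128 CPM in HepKO, against 85.1, 99.2 and 160 CPM in HepWT. At each time except ZT6, both of its HepKO libraries lay above both HepWT libraries. Such a separation was seen in 21.5% of all tested genes at ZT2 and in 25.8% at ZT10. Shares for the later times are not given here. The 160 CPM belonged to HepWT ZT6 replicate 1, whose partner library had 102 CPM, and without it the difference was 0.17 and was called (adjusted p = 0.00313; 0.00151 to 0.861 over the alternatives).

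Cyp4v3, the most abundant member, was not called. It had 364, 454 and 558 CPM in HepKO, against 355, 445 and 473 CPM in HepWT (0.07 ± 0.06, adjusted p = 0.388). At ZT2 both HepKO libraries (558 and 518 CPM) were above both HepWT libraries (431 and 381 CPM), as in 21.5% of all tested genes, with a difference of 0.40 ± 0.14 that did not pass the adjustment (adjusted p = 0.190). It overlaps Gm45753 on the same strand, with which it shares 5.77% of its 100-base windows. Its promoter is shown because it was the 1 searched promoter of the family with an E-box, the 6-base site bound by CLOCK and BMAL1. Below are the 250 bases before the RefSeq start on the minus strand (GRCm38.p6, chr8:45333164-45333413), with the E-box in capitals.
Cyp4v3: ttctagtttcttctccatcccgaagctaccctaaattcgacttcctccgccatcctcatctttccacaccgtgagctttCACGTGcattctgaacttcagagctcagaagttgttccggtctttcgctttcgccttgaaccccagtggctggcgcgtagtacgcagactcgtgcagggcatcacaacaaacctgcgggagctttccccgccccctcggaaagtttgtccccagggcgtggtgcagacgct
The E-box (CACGTG) starts 171 bases before the start, and 7.15% of 32851 RefSeq promoter windows of 300 bases hold one on either strand. RefSeq windows were at hand for 5 of the 10 members (Cyp4a32, Cyp4f13, Cyp4f14, Cyp4f15 and Cyp4v3), 8 windows in all. None of the 8 held the D-box TTATGTAA (0.938% of windows), the DR1 bound by PPARA with its partner RXR, searched as AGGTCA repeated after 1 base (0.0396%), AGGTCA alone (16.3%) or the ROR element, searched as AGGTCA after AANT (0.219%). The DR1 and the ROR element both contain AGGTCA, and both strands were read. A match is a description of letters and not a site in use.

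At single times the calls were few, as they were for all genes. The percentages in this paragraph count genes called after adjustment, and no share of all genes at an unadjusted p is given for these tests. In the averaged comparison, 6298 of 17275 genes had an unadjusted p below 0.05 with edgeR. At ZT2 none of the 10 was called by edgeR or limma-voom (1.86% of all genes with edgeR), and DESeq2 called Cyp4a10 and Cyp4a32. With edgeR, 6 members had an unadjusted p below 0.05 at ZT2. At ZT10 none was called (7.71% of genes, 1 member at an unadjusted p below 0.05), at ZT18 none (3.79%, 1 member) and at ZT22 none (1.35%, 0 members). DESeq2 and limma-voom also called none at these 3 times. Whether the genotype difference itself changed over the day was tested as the interaction of genotype and time. No member passed with edgeR, DESeq2 or limma-voom, against 1.12% of all genes with edgeR, and 3 had an unadjusted p below 0.05 (Cyp4a31, Cyp4a32 and Cyp4f14). The gaps of the Cyp4a genes at ZT2 and ZT6 and that of Cyp4f14 at ZT14 were therefore not shown to differ from the gaps at other times.

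Over 24 h, none of the 10 genes was rhythmic in HepKO with edgeR, against 14.3% of all genes called. DESeq2 called 1 (Cyp4a14) and limma-voom none. With edgeR, 3 members had an unadjusted p below 0.05, a count for which no share of all genes is given. In HepWT 4 of the 10 were rhythmic (Cyp4a32, Cyp4f13, Cyp4f14 and Cyp4f15), against 30.3% of all genes. The amplitudes, from the mean to the peak of a fitted 24 h wave in log2 units, were small. In HepKO and HepWT the amplitude of Cyp4f14 was 0.11 ± 0.06 and 0.27 ± 0.06, with a HepWT peak at ZT23.6 (adjusted p = 0.00832 in HepWT). Cyp4f15 had amplitudes of 0.15 ± 0.06 in HepKO and 0.28 ± 0.06 in HepWT, with peaks at ZT6.56 and ZT6.43 (adjusted p = 0.00250 in HepWT). Both genotypes thus had their fitted Cyp4f15 peak in the middle of the light phase. Cyp4a32 had amplitudes of 0.21 ± 0.13 in HepKO and 0.43 ± 0.12 in HepWT, with a HepWT peak at ZT5.54 (adjusted p = 0.0277), and the HepWT call was lost without HepWT ZT6 replicate 1 (adjusted p = 0.134). Cyp4f13 had amplitudes of 0.07 ± 0.04 in HepKO and 0.17 ± 0.04 in HepWT, with peaks at ZT11.3 and ZT11.0 (adjusted p = 0.0124 in HepWT). The widest fitted waves were those of Cyp4a14 (1.93 ± 0.54 in HepKO, 0.51 ± 0.53 in HepWT) and Cyp4a10 (1.22 ± 0.38 in HepKO, 0.16 ± 0.37 in HepWT). Neither was called in either genotype (adjusted p = 0.0771 for Cyp4a14 and 0.151 for Cyp4a10 in HepKO).

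A rhythm called in one genotype and not in the other is not a difference in rhythm, so the waves were compared directly. No member's rhythm differed between genotypes with edgeR, DESeq2 or limma-voom, against 1.5% of all genes called with edgeR. With edgeR, 2 members had an unadjusted p below 0.05 (Cyp4a14 and Cyp4f14), and no share of all genes is given for that count. Adjusted p was 0.257 for Cyp4a14 and 0.250 for Cyp4f14. The fitted amplitude was larger in HepKO for 6 genes and larger in HepWT for the 4 that were rhythmic there, as the plot of amplitudes shows.

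**Figure D5:**
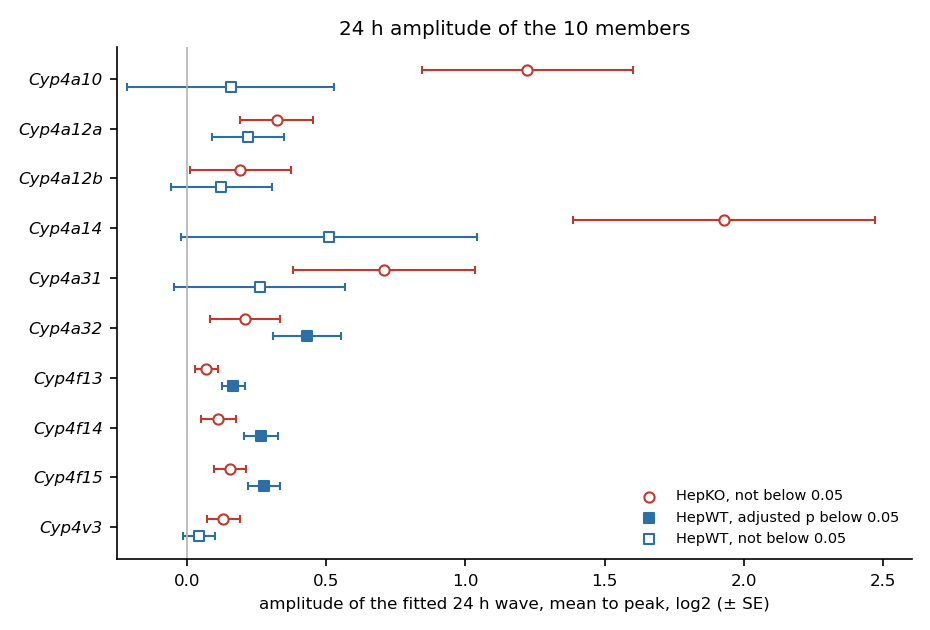
Amplitude of the fitted 24 h wave of each gene in log2 units (x axis, mean to peak, bars are ± 1 SE), with HepKO as red circles above HepWT as blue squares and filled symbols for adjusted p below 0.05. Filled symbols appear only in HepWT, for Cyp4a32, Cyp4f13, Cyp4f14 and Cyp4f15 at 0.17 to 0.43, while the unfilled HepKO circles of Cyp4a10 and Cyp4a14 lie at 1.22 and 1.93 with wide bars.

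The genes around the family's reactions were read from lists that hold no family 4 gene. Of 43 tested PPARA target genes, 34 were lower and 2 higher in HepKO averaged over the day (median -0.39, against -0.01 over all genes and backgrounds of 13.3% lower and 13.2% higher). Fabp1, the liver fatty acid binding protein, had 1840 ± 302 CPM in HepKO and 3103 ± 389 CPM in HepWT (-0.76 ± 0.07, adjusted p = 1.58e-07). Cpt1a, which controls entry of fatty acids into mitochondria, had 240 ± 89.4 CPM in HepKO and 395 ± 163 CPM in HepWT (-0.68 ± 0.05, adjusted p = 2.73e-08). Of 27 regulators, 11 were lower and 5 higher (3 higher without the 5 libraries of low depth). Ppara itself had 85.4 ± 17.2 CPM in HepKO and 152 ± 49.3 CPM in HepWT (-0.79 ± 0.08, adjusted p = 7.97e-07). Ppard, a related fatty acid receptor, had 17.01 ± 5.41 CPM in HepKO and 8.32 ± 6.70 CPM in HepWT (1.37 ± 0.08, adjusted p = 1.31e-09). The Ppard difference changed over the day (interaction adjusted p = 0.000357, edgeR quasi-likelihood test), with amplitudes of 0.60 in HepKO and 1.45 in HepWT. The interaction was not called for Fabp1, Cpt1a or Ppara.

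Tested genes that act with family 4 in omega oxidation, as electron donors or on its products, numbered 25. Of these, 14 were lower and 4 higher in HepKO (median -0.24), against 13.3% lower and 13.2% higher over all tested genes. Without the 5 libraries of low depth, 2 were higher. Por, the reductase that passes electrons to microsomal P450 enzymes, had 105 ± 15.8 CPM in HepKO and 262 ± 161 CPM in HepWT (-1.11 ± 0.09, adjusted p = 5.02e-08). Aldh3a2, which oxidises fatty aldehydes, had 113 ± 24.1 CPM in HepKO and 288 ± 92.9 CPM in HepWT (-1.34 ± 0.14, adjusted p = 9.95e-07). Averaged over the day, Por and Aldh3a2 were thus lower in HepKO, as Cyp4a10 and Cyp4a32 were. The Por difference changed over the day (interaction adjusted p = 0.00848, edgeR quasi-likelihood test), and that of Aldh3a2 was not called (0.871). The 24 h amplitude of Por was 0.17 in HepKO and 1.07 in HepWT. Its lowest HepWT library, at 92.3 CPM, lay below the HepKO median of 102 CPM. The 28 tested genes of eicosanoid metabolism had no common direction, with 8 higher and 5 lower (median -0.06), against the same backgrounds. Cyp2c29, an arachidonic acid epoxygenase, was higher (1.20 ± 0.08, adjusted p = 6.91e-09), and Hpgd, which inactivates prostaglandins, was lower (-0.90 ± 0.07, adjusted p = 4.89e-08).

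Sex-biased genes were read beside the male-biased Cyp4a12 pair, since the labels used here do not give the sex of the mice. Of 15 male-biased liver genes, 6 were higher and 3 lower in HepKO (median 0.29), and of 12 tested female-biased genes 9 were lower and none higher (median -2.69), against backgrounds of 13.2% higher and 13.3% lower. The 3 lower male-biased genes became 1 when any 1 of 11 libraries was left out in turn (HepKO replicate 1 of ZT2, ZT6, ZT10 and ZT18, HepKO replicate 2 of ZT14 and ZT22, and HepWT replicate 1 of ZT2, ZT10, ZT14, ZT18 and ZT22), without the 5 libraries of low depth, and with the HepWT replicate 2 libraries alone as the control. With limma-voom the 9 lower female-biased genes were 5. Some of the 12 had few counts: Acot3 averaged 0.303 CPM in HepKO and 6.17 CPM in HepWT, and Cyp17a1 0.721 and 6.91 CPM. Elovl3, a male-biased fatty acid elongase, had 914 ± 104 CPM in HepKO and 201 ± 177 CPM in HepWT (2.73 ± 0.16, adjusted p = 1.74e-09). The Elovl3 difference changed over the day (interaction adjusted p = 0.00323, edgeR quasi-likelihood test), with 24 h amplitudes of 0.17 in HepKO and 1.86 in HepWT. Fmo1, a female-biased flavin monooxygenase, had 108 ± 7.32 CPM in HepKO and 193 ± 42.5 CPM in HepWT (-0.82 ± 0.06, adjusted p = 7.29e-09). No tested gene outside the family lies between the outermost members of the Cyp4a cluster. In the Cyp4f cluster, 5 tested neighbours lie between Cyp4f15 and Cyp4f13, and edgeR called none of them (the smallest adjusted p was 0.0543, for Gm17115).

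For each member above 10 CPM, the genes most alike in log2(CPM + 1) over the 24 libraries were ranked by Pearson's r, a description over libraries that share genotype, time and depth. Ech1, an enzyme of peroxisomal and mitochondrial fatty acid oxidation, was closest to Cyp4a10 (r = 0.92) and to Cyp4a14 (r = 0.87). Retsat (0.90) and Hadha (0.85) followed for Cyp4a10, and Cyp2c38 (0.82) and Ehhadh (0.80) for Cyp4a14. Cyp4a12b was closest to Ugt3a1 (0.89) and Mup21 (0.85), whereas Cyp4a12a was closest to Opa1 at 0.74. The closest genes to Cyp4f13, Cyp4f14 and Cyp4f15 were Slc25a16 (0.88), Trim2 (0.81) and Ube2b (0.86), and those to Cyp4a32 and Cyp4v3 were Chrac1 (0.79) and Yme1l1 (0.77).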

How the data were processed

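Liver RNA was measured in 24 libraries. Per the labels' protocols, ribosomal RNA was depleted, stranded libraries were built from 250 ng of RNA and amplified for 12 PCR cycles, and both ends were read for 100 cycles. The authors aligned with STAR 2.4.0i to mm10, per the submitters' processing notes. The deposited values are counts, whole numbers per Ensembl gene, not normalized. The sources used here do not give the counting tool, its annotation or its treatment of reads that match several genes, so near-identical copies are uncertain, and so is Cyp4a12b where it overlaps the opposite-strand pseudogene Gm12837.

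From these counts, edgeR 4.0.16 (R 4.3.3) was run with TMM scaling, filterByExpr (minimum count 10, minimum total 15) and the quasi-likelihood F test, two-sided. One model had a level for each of 12 groups (12 residual degrees of freedom), and another had a 24 h wave in each genotype (18). Benjamini-Hochberg adjustment ran over 17275 genes. DESeq2 1.42.0, limma-voom (limma 3.58.1), other filters and scalings, each library left out, subsets of libraries and summed copies were alternatives. The fits were tested on simulated counts. Chi-square per degree of freedom between the 2 libraries of a group was 8.42 to 57.7, far above counting error, and precision was set by that spread. Without molecular identifiers, PCR copies of a molecule cannot be removed. CPM was divided by exon length from GENCODE M21. Identity was computed on coding nucleotides and not on proteins, for which no table was at hand. Promoters came from RefSeq (GRCm38.p6). The genes and lists were chosen with earlier results of these data known. All 10 members were named, and in each list up to 4 genes with the smallest p could be named, plus Ppara, Por and Arntl.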

Additional observations from a re-analysis of the deposited data

Results flagged for a closer look

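Cyp4f17 is a family 4 gene on chromosome 17 outside the 10 genes above, and its genotype difference changed over the day. It had 17.5 ± 1.25 CPM in HepKO and 14.2 ± 3.402 CPM in HepWT (SD, n = 12 each). The interaction of genotype and time passed the threshold (adjusted p = 0.0406, edgeR quasi-likelihood test), and so did the difference between the 24 h rhythms (adjusted p = 0.00302). The amplitude was 0.06 ± 0.05 in HepKO and 0.44 ± 0.05 in HepWT, with the HepWT peak at ZT1.498. The level was higher in HepKO at ZT10 (19.0 CPM in HepKO and 10.7 CPM in HepWT, means of 2 libraries, adjusted p = 0.000452) and at ZT14 (16.9 CPM in HepKO and 10.6 CPM in HepWT, adjusted p = 0.00271). The interaction call was lost when any 1 of 19 libraries was left out in turn (adjusted p from 0.0261 to 0.140 over the 24). The rhythm difference kept its call in each of those 24 fits (adjusted p up to 0.0116), and it was lost with the HepWT replicate 2 libraries alone as the control (adjusted p = 0.0557).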

How the results depend on the processing

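With RLE scaling, DESeq2, limma-voom, a stricter filter, TMM without Alb and mitochondrial genes, or time as a 24 h wave, each of the 5 averaged calls kept its direction and its call. The number of members called in the averaged comparison, 5 of 10, was 2 without the 5 HepKO libraries of low depth, 3 with only the HepWT replicate 1 or only the HepWT replicate 2 libraries as the control, and 1 at a threshold of 0.01. Without any filter on low counts, edgeR called 6 members for the interaction, 5 for the rhythm in HepKO, 6 for the rhythm difference, and 6, 5, 3, 6, 3 and 2 at ZT2, ZT6, ZT10, ZT14, ZT18 and ZT22. In the averaged comparison without a filter, edgeR also called Cyp4a12a (-0.21, adjusted p = 0.000495), Cyp4a14 (-0.70, adjusted p = 2.58e-38) and Cyp4a31 (-0.47, adjusted p = 0.000567). Cyp4f13 lost its call there (0.12, adjusted p = 0.121). The cause of these changes was not tested. For the rhythm in HepKO, DESeq2, a 12 h harmonic and the HepWT replicate 2 libraries alone each gave 1 member. For the rhythm in HepWT, either the HepWT replicate 1 or the replicate 2 libraries alone gave 1 and the threshold of 0.01 gave 2. At ZT2, DESeq2 and the HepWT replicate 2 libraries gave 2, and leaving out the libraries of low depth gave 1. At ZT6, limma-voom, leaving out the libraries of low depth, the HepWT replicate 2 libraries, summed copies and the threshold of 0.01 gave 0, and the HepWT replicate 1 libraries gave 2. With the HepWT replicate 2 libraries, ZT18 and ZT22 gave 1 each.

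Leaving out 1 library at a time gave 4 to 5 members called on average, 0 to 2 rhythmic in HepKO, 3 to 4 rhythmic in HepWT, 0 to 2 at ZT2, 0 to 2 at ZT6 and 0 to 1 at ZT14, and 0 for the interaction, the rhythm difference, ZT10, ZT18 and ZT22. The averaged Cyp4a12a difference, not called, turned to 0.0742 with the HepWT replicate 2 libraries and to 0.0536 in the sum with Cyp4a12b. The difference in Cyp4a12b amplitude, 0.07, was -0.0121 with the HepWT replicate 1 and -0.26 with the replicate 2 libraries, and it ran from -0.0739 to 0.23 with 1 library left out. That of Cyp4a32, -0.22, was 0.85 in the sum with Cyp4a10 and Cyp4a31. None of these was called.

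Between genotypes the replicate numbers did not pair the libraries: deviations of same-numbered HepKO and HepWT libraries of a time correlated at -0.09 to 0.05. Within HepWT, 11 of 15 same-numbered pairs of times correlated above 0.1. With a replicate block, 5 members were called on average, 0 for the interaction and 1 at ZT2 (Cyp4a32). That block was 1 term shared by both genotypes, so it cannot fully take up deviations seen only within HepWT. Depth limits Cyp4a31 and Cyp4f18, whose counts were low, and 2 libraries a time limit every comparison at 1 time.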

Other observations

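Besides the 10 genes, 15 other rows of family 4 were in the table, and 6 of them were abundant enough to be tested: Cyp4b1, Cyp4f16, Cyp4f17, Cyp4f18, Cyp4f39 and the pseudogene Cyp4f41-ps. Averaged over the day, Cyp4f17 was higher in HepKO (0.34 ± 0.05, adjusted p = 9.68e-05, edgeR quasi-likelihood test). Cyp4f18, known in mice as a leukotriene B4 hydroxylase of neutrophils, had 0.519 ± 0.177 CPM in HepKO and 0.343 ± 0.141 CPM in HepWT (SD, n = 12 each), and it was called (0.59 ± 0.19, adjusted p = 0.0294) at a level of few counts. DESeq2 did not call it (adjusted p = 0.0962), nor did edgeR without the 5 HepKO libraries of low depth (adjusted p = 0.0599), and none of the 3 tested neutrophil markers was called by edgeR, with a summed median of 2.20 CPM in HepKO and 2.84 CPM in HepWT. Cyp4b1, a family 4 enzyme better known from lung, had 18.9 ± 2.51 CPM in HepKO and 20.4 ± 3.71 CPM in HepWT and was not called (adjusted p = 0.379). In the other marker lists, 3 of 8 stellate cell genes were lower and 1 higher in HepKO. Of 5 cholangiocyte genes 2 were higher and none lower, and none of 7 lymphocyte genes was called. Over all tested genes, 13.3% were lower and 13.2% higher.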
